A study of Mus musculus with 6 samples.

Results

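The genes described here encode 4 pore-forming subunits of voltage-gated potassium channels, *Kcnb2* (Kv2.2), *Kcnc1* (Kv3.1), *Kcnc2* (Kv3.2) and *Kcnc4* (Kv3.4). They were taken by their symbols from the 50508 gene symbols listed for each library, and all 4 were listed above 0 in all 6 libraries. RNA was sequenced from primary neurons of newborn C57Bl/6J mice transduced with a lentivirus carrying either a guide against the *Kcna1* promoter (sgKcna1, here Kcna1-dCas9A) or a control guide against LacZ (sgLacZ, here Ctrl-dCas9A), with 3 libraries per group. Both groups also expressed a nuclease-dead Cas9 fused to the activator VP160, driven by the Ef1alpha promoter, which is not restricted to neurons, so the guide was the only labelled difference. The labels name hippocampus as the source, whereas the culture methods name cortex, and the methods give more than one culture age for the RNA. The study design speaks in general of independent repetitions, but nothing ties these libraries to separate cultures, so the p-values below measure the spread between libraries, which may be technical.

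Kv2 and Kv3 channels are voltage-gated potassium channels that help repolarize the neuron during and after an action potential. Kv2 channels activate slowly, cluster on the soma and proximal dendrites, and can take up silent subunits that form no channel alone. Kv3 channels open and close quickly and allow sustained fast firing, and Kv3.1 and Kv3.2 are known from fast-spiking inhibitory interneurons, while Kv3.4 inactivates quickly and is known from axons and presynaptic terminals. The comparison asks whether these genes moved when the promoter of another potassium channel gene, *Kcna1* (Kv1.1), was activated.

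The family members are separate genes with a similar pore, and the coding sequence of the potassium selectivity filter is shown for each because near-identical stretches decide whether a short read can be given to a single gene. The 30 bases below are from GENCODE vM1 transcripts on NCBIM37 (mm9). Capitals mark the 18 bases that match ACNNTNGGNTANGGNGAN, the consensus of these 4 genes with N where they differ. This pattern was searched in the reading frame of the coding strand and found in 38 of 22594 genes (0.168%).
Kcnb2: atgaccACTGTGGGCTACGGTGACatttac
Kcnc1: atgacgACACTGGGCTATGGAGACatgtat
Kcnc2: atgactACCTTAGGTTACGGGGATatgtac
Kcnc4: atgacaACGCTTGGCTATGGGGACatgtat
*Kcnc1* and *Kcnc4* differed at 4 of the 30 bases, *Kcnc2* and *Kcnc4* at 8, and *Kcnc1* and *Kcnc2* at 9. *Kcnb2* differed from *Kcnc1* at 7 bases and from *Kcnc2* and *Kcnc4* at 8 each. Over whole transcripts, the longest run that *Kcnc1* shared with *Kcnc2* or with *Kcnc4* was 29 bases, and *Kcnb2* shared at most 16 bases with any of the other 3 genes, all shorter than the 75-base reads. In the last 500 bases of the transcripts, where reads of a 3′ library mostly lie, no pair of the 4 genes shared more than 12 bases.

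In GENCODE vM1 (NCBIM37), the build named in the paper's methods, *Kcnb2* lies on the plus strand at chr1:15302533-15701710, with its 3′ part listed as a second record under the same symbol at chr1:15702384-15706448. *Kcnc1* lies on the plus strand at chr7:53651867-53693745, *Kcnc2* on the plus strand at chr10:111708179-111903360 and *Kcnc4* on the minus strand at chr3:107241221-107261816. The submitters' processing notes name mm10 instead, and the annotation used for counting is not given in the sources used here.

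The deposited values are whole numbers that sum to between 999047 and 999717 in each library and were treated as rounded values on a common scale, so the read depth is unknown. From 14788 to 15417 genes per library were above 0, and a single gene, Gm42418, held 15.3% to 20.2% of a library. The targeted gene *Kcna1* was listed at 16 in each Ctrl-dCas9A library, and Kcna1-dCas9A replicates 1 to 3 had 68, 47 and 65. It rose by 1.83 on the log2 scale (standard error 0.16, limma, adjusted p = 0.0345). The difference was 1.73 to 1.99 with a library left out, although the adjusted p then exceeded 0.05 (up to 0.143) except without Ctrl-dCas9A replicate 3. All log2 fold changes are differences of log2(value + 1), which shrinks differences of genes listed at low values. Of the 19504 genes tested, 226 (1.16%) passed a Benjamini-Hochberg adjusted p of 0.05, 68 higher (0.349%) and 158 lower (0.81%) in Kcna1-dCas9A, and after median-of-ratios rescaling 963 were higher and 758 lower. The count changed when a single library was left out, as limma called 2711 genes without Ctrl-dCas9A replicate 3 and 0 without any one of the other 5 (3332 to 3853 at an unadjusted p of 0.05). With the replicate number as a block it called 0 (4326 at an unadjusted p of 0.05), and the adjusted p of *Kcna1* was 0.111.

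None of the 4 genes passed this threshold (0 of 4, against 1.16% of all genes tested, 0.349% higher and 0.81% lower), and the libraries of both groups overlapped for each of them (0 of 4 apart, against 22.2% of all genes tested). At an unadjusted p of 0.05 from limma, 1 of the 4 (*Kcnc4*) was counted, against 23.2% of all genes tested. The median log2 fold change was 0.22 over the 4 genes and -0.02 over all genes tested. Of these 4 genes, *Kcnc2* and *Kcnc4* had the largest differences, of opposite sign, and both were listed at 11 or less in every library.

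*Kcnb2*, the Kv2.2 gene, had values of 11, 18 and 20 in Ctrl-dCas9A (16.3 ± 4.7, SD, n = 3), against 22, 17 and 18 under Kcna1-dCas9A (19 ± 2.6, SD, n = 3). The lowest value was that of Ctrl-dCas9A replicate 1, and the remaining 5 libraries lay between 17 and 22. The log2 fold change was 0.24 (standard error 0.24, 95% confidence interval -0.33 to 0.81, limma, adjusted p = 0.516), smaller than the spread between replicates. Without Ctrl-dCas9A replicate 1 it was -0.006. The interval excludes neither an equal level nor a level 1.75-fold higher.

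**Figure D1:**
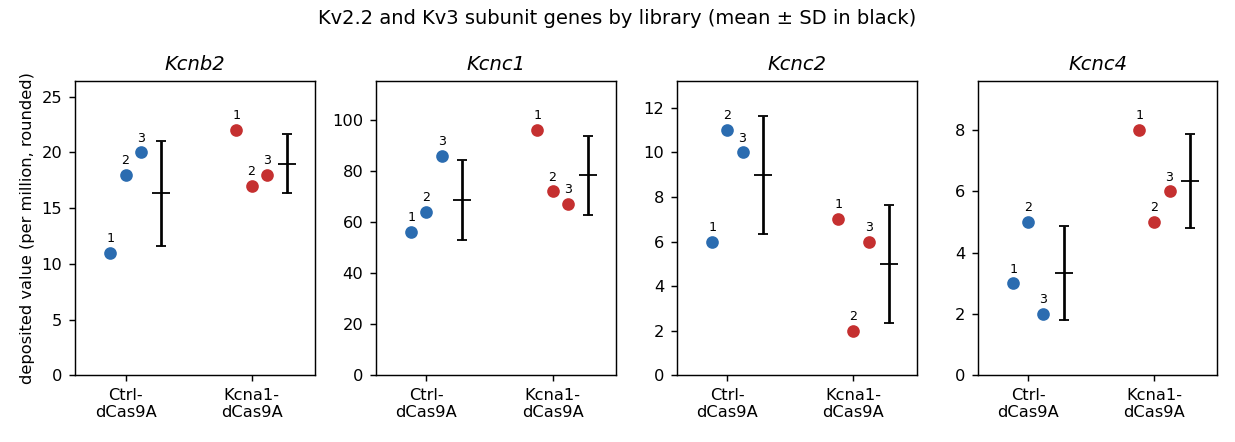
Deposited values (rounded, on a common scale, linear axes from 0) of *Kcnb2*, *Kcnc1*, *Kcnc2* and *Kcnc4* in the 3 Ctrl-dCas9A libraries (blue) and the 3 Kcna1-dCas9A libraries (red), numbered by replicate, with the mean ± SD of each group in black. The groups overlap in all 4 panels, and *Kcnc2* and *Kcnc4* are listed at 11 or less in every library.

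*Kcnc1*, the Kv3.1 gene, stood at 56, 64 and 86 under the control guide (68.7 ± 15.5, SD, n = 3), and the sgKcna1 libraries gave 96, 72 and 67 (78.3 ± 15.5, SD, n = 3). The highest value was in Kcna1-dCas9A replicate 1 and the lowest in Ctrl-dCas9A replicate 1, and Ctrl-dCas9A replicate 3 was above the other 2 Kcna1-dCas9A libraries. The log2 fold change was 0.19 (standard error 0.20, 95% confidence interval -0.28 to 0.66, limma, adjusted p = 0.525). *Kcnc1* had the narrowest interval of the 4 genes, and a level more than 1.59-fold higher or below 0.825-fold lies outside it. In GENCODE vM1 its 3′ end faces that of *Sergef*, a gene on the opposite strand that ends 4792 bases away. The values of *Sergef* were 18, 20 and 49 against 75, 66 and 107, higher in every Kcna1-dCas9A library, but limma gave an adjusted p of 0.0631 (log2 fold change 1.59, standard error 0.38). Whether reads beyond an annotated end were counted to either gene is not given in the sources used here.

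*Kcnc2*, the Kv3.2 gene, had 6, 11 and 10 under the control guide (9 ± 2.6, SD, n = 3), compared with 7, 2 and 6 under sgKcna1 (5 ± 2.6, SD, n = 3). Ctrl-dCas9A replicate 1 lay within the Kcna1-dCas9A range, and Kcna1-dCas9A replicate 2 was the lowest library. The log2 fold change was -0.82 (standard error 0.42, 95% confidence interval -1.81 to 0.17, limma, adjusted p = 0.272), and it was -0.38 without Kcna1-dCas9A replicate 2. The interval reaches from 0.285-fold to 1.13-fold, so a level well below that of Ctrl-dCas9A and an equal level both lie within it. Because each listed value may be off by 0.5 through rounding, the log2 ratio of the means, -0.85, could lie anywhere between -1.08 and -0.63.

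*Kcnc4*, the Kv3.4 gene, reached 3, 5 and 2 in the control libraries (3.33 ± 1.53, SD, n = 3), whereas the sgKcna1 libraries held 8, 5 and 6 (6.33 ± 1.53, SD, n = 3). Ctrl-dCas9A replicate 2 and Kcna1-dCas9A replicate 2 had the same value, and every other Kcna1-dCas9A library was above every Ctrl-dCas9A library. The log2 fold change was 0.80 (standard error 0.32, 95% confidence interval 0.04 to 1.56, limma, adjusted p = 0.192). Before adjustment limma gave p = 0.042 (0.0876 with the replicate number as a block, and 0.0528 to 0.134 in 5 of the 6 fits that left out a library), and the two-sided exact permutation test over the 6 libraries gave p = 0.2, where 0.1 is the smallest p that 3 libraries against 3 allow. Rounding leaves the log2 ratio of the means, 0.93, between 0.61 and 1.27.

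**Figure D2:**
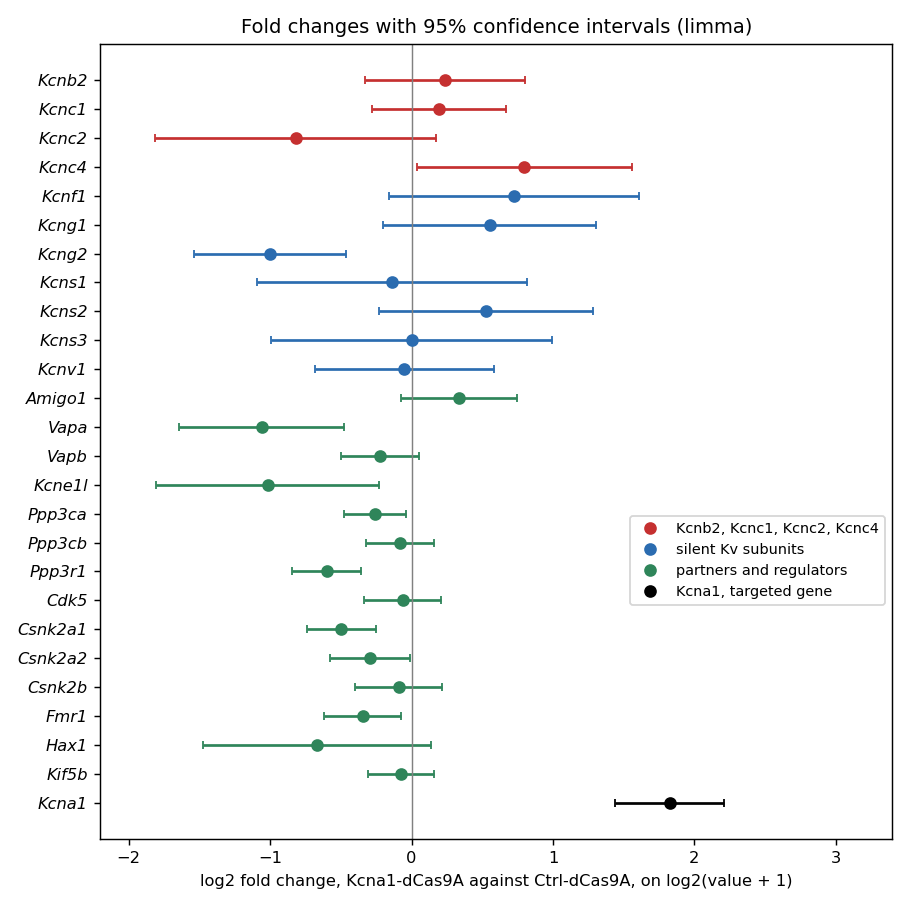
Log2 fold change of Kcna1-dCas9A against Ctrl-dCas9A on log2(value + 1), with its 95% confidence interval from limma (3 libraries per group), for *Kcnb2*, *Kcnc1*, *Kcnc2* and *Kcnc4* (red), silent Kv subunits (blue), partners and regulators (green) and *Kcna1* (black). The intervals of *Kcnb2*, *Kcnc1* and *Kcnc2* include 0, that of *Kcnc4* begins at 0.04, and *Kcna1* lies at 1.83.

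A ratio of 2 genes of the same library hardly depends on how that library was scaled, and the 3 pairs among *Kcnc1*, *Kcnc2* and *Kcnc4* were therefore compared on the log2 scale. The log2 ratio of *Kcnc2* to *Kcnc4* was 0.81, 1.0 and 1.87 in Ctrl-dCas9A and -0.17, -1.0 and 0.0 in Kcna1-dCas9A. The groups did not overlap, and the difference was -1.62 (two-sided exact permutation test, p = 0.1, 0.15 adjusted over the 3 pairs). The log2 ratio of *Kcnc1* to *Kcnc2* was 3.03, 2.44 and 2.98 in Ctrl-dCas9A and 3.60, 4.61 and 3.28 in Kcna1-dCas9A. Here too the groups did not overlap, with a difference of 1.01 (exact permutation p = 0.1, 0.15 adjusted). The log2 ratio of *Kcnc1* to *Kcnc4* averaged 4.04 ± 0.73 (SD, n = 3) in the controls against 3.44 ± 0.16 (SD, n = 3), with overlapping groups and a difference of -0.60 (exact permutation p = 0.2, also after adjustment). With 3 libraries per group p cannot fall under 0.1, so no pair could reach 0.05. Both pairs that separated the groups contain *Kcnc2*, so they are not independent, and *Kcnc2* alone had overlapping groups. How often ratios of other gene pairs separate the groups was not computed. Single genes did so for 22.2% of all genes tested.

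**Figure D3:**
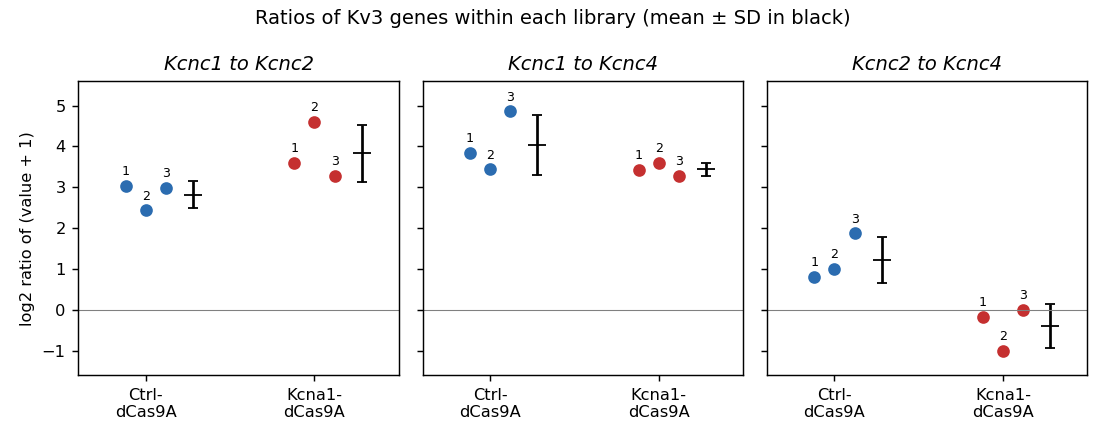
Log2 ratio of (value + 1) for each pair of *Kcnc1*, *Kcnc2* and *Kcnc4* within each library, Ctrl-dCas9A in blue and Kcna1-dCas9A in red, numbered by replicate, with the mean ± SD of each group in black. The ratio of *Kcnc2* to *Kcnc4* is between 0.81 and 1.87 in Ctrl-dCas9A and between -1.0 and 0.0 in Kcna1-dCas9A.

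Since Kv3.1 and Kv3.2 mark fast-spiking interneurons, markers of the cell types in the cultures were set beside these values. All 10 pan-neuronal markers were listed above 0 in every library, and 0 of 10 passed the threshold, with their summed values between 6387 and 7310 in Ctrl-dCas9A and between 7446 and 8846 in Kcna1-dCas9A. These markers did not move together, since the groups were apart for 5 of the 10, with *Tubb3* and *Nefl* higher and *Snap25*, *Map2* and *Elavl4* lower in Kcna1-dCas9A, against 22.2% of all genes tested (8.98% higher, 13.3% lower). *Tubb3* had 1862, 1752 and 2605 against 3855, 3221 and 4591, a gap wider than that of the sums, whereas *Snap25* had 94, 89 and 86 against 66, 59 and 56. *Pvalb*, a marker of fast-spiking cells, was listed at 0 in all 6 libraries. With rounding and unknown depth, this does not show that such cells were absent. The other 8 markers of interneurons from the medial ganglionic eminence summed to between 381 and 414 in Ctrl-dCas9A and to between 332 and 377 in Kcna1-dCas9A, and 0 of 8 passed. Inhibitory neuron markers summed to between 236 and 265 and to between 201 and 229, with 0 of 10 past the threshold, and excitatory neuron markers to between 1340 and 1500 and to between 1298 and 1378, with 0 of 8. The excitatory markers were also mixed, with *Slc17a7*, *Camk2a* and *Nrgn* listed higher (log2 fold changes 0.61, 0.62 and 0.53) and *Neurod6* lower (-0.40), each with groups apart. The part of these shifts in the values of *Kcnc2*, whose groups overlapped, was not tested. In bulk RNA, fewer cells of a type and less RNA per cell cannot be told apart.

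Relative to the mean log2 value of the pan-neuronal markers in the same library, the difference of *Kcnc2* was -0.90 on the log2 scale (exact permutation p = 0.1, two-sided, which is as low as this design goes), and on this scale the groups were apart, lower, for 20.6% of all genes tested. Replicate 1 of both groups stood at about -5.37, closer together than rounding resolves. Without *Tubb3* in the reference, an alternative chosen after seeing the data, the difference was -0.81 and the groups overlapped (exact permutation p = 0.2). With all 10 markers as the reference, the same difference was 0.71 for *Kcnc4* (exact permutation p = 0.2), 0.15 for *Kcnb2* (p = 0.8, permutation) and 0.11 for *Kcnc1* (p = 0.6, permutation), each with overlapping groups. Without *Tubb3* the difference of *Kcnc4* was 0.81 and its groups were apart (exact permutation p = 0.1), as they were, higher, for 13.1% of all genes tested on that scale.

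Among non-neuronal markers, those of astrocytes summed to between 961 and 1069 in Ctrl-dCas9A and to between 702 and 718 in Kcna1-dCas9A, with 3 of 10 past the threshold, all lower, against 0.81% lower among all genes tested. Those of microglia summed to between 23 and 28 and to between 58 and 78, with 1 of 8 past it, higher, against 0.349%. Oligodendrocyte lineage markers summed to between 66 and 98 and to between 40 and 44 (1 of 7 past it, lower), dividing cell markers to between 121 and 126 and to between 71 and 75 (0 of 8), and vascular and meningeal markers to between 8 and 14 and to between 4 and 9 (0 of 7). The groups were apart for 7 of 8 dividing cell markers, all lower (median log2 fold change -0.93), 6 of 10 astrocyte markers, all lower, 5 of 8 microglia markers, all higher, and 5 of 7 oligodendrocyte lineage markers, 4 of them lower, against 13.3% lower and 8.98% higher among all genes tested. Over the settings tried, from 0 to 5 astrocyte, 0 to 6 microglia, 0 to 3 oligodendrocyte lineage and 0 to 4 dividing cell markers passed, as did 0 to 6 pan-neuronal, 0 to 4 excitatory, 0 to 4 inhibitory and 0 to 2 medial ganglionic eminence markers. None of these markers passed with the replicate block or in 5 of the 6 fits that left out a library. The share of all genes tested that passed ran from 0 to 27.6% over the same settings, so the counts cannot be read alone. That share was 4.76% with no filter, where 6 microglia markers passed. It was 14.2% without Ctrl-dCas9A replicate 3, where 6 pan-neuronal markers passed. The part of cell mix in the values of the 4 channel genes was not tested.

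Silent subunits join Kv2 subunits and change the gating of the resulting channels. Of 10 such genes, *Kcng3*, *Kcng4* and *Kcnv2* were listed at 0 in all libraries, and 0 of the other 7 passed the threshold (median log2 fold change 0.00). *Kcng1* had values of 7, 4 and 6 against 8, 13 and 6, and *Kcnv1* 4, 4 and 7 against 4, 5 and 5. *Kcng2* was listed at 1 in every Ctrl-dCas9A library and at 0 in every Kcna1-dCas9A library. This is the only one of the 7 silent subunit genes tested whose groups did not overlap, against 13.3% lower among all genes tested. Its control values are the lowest that rounding leaves above 0 (limma, adjusted p = 0.0556).

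Of 18 genes of partners and regulators, *Kcne1* to *Kcne4* were listed at 0 throughout, and 0 of the other 14 passed the threshold, with a median log2 fold change of -0.28. The groups did not overlap for 8 of these 14 genes, 7 lower and 1 higher in Kcna1-dCas9A, against 13.3% lower and 8.98% higher among all genes tested. *Amigo1*, a cell adhesion protein that travels with Kv2 channels, was the one listed higher, at 12, 9 and 11 against 13, 15 and 13, and the log2 fold change was 0.34 (standard error 0.17, limma, adjusted p = 0.274). *Vapa*, whose product anchors clustered Kv2 channels to the endoplasmic reticulum, was listed at 204, 197 and 119 against 93, 90 and 62, and the log2 fold change was -1.06 (standard error 0.25, limma, adjusted p = 0.0602). The related *Vapb* was listed at 95, 103 and 105 against 99, 78 and 83, with overlapping groups.

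*Ppp3r1*, the regulatory subunit of calcineurin, a phosphatase that acts on Kv2 channels, had 422, 453 and 395 against 272, 310 and 256, and the log2 fold change was -0.60 (standard error 0.10, limma, adjusted p = 0.051). The catalytic subunit gene *Ppp3ca* was listed at 866, 766 and 726 against 675, 639 and 651 (log2 fold change -0.26, adjusted p = 0.149 from limma). *Csnk2a1*, a catalytic subunit of casein kinase 2, which phosphorylates Kv3.1, was listed at 292, 276 and 262 against 211, 204 and 174, and the log2 fold change was -0.50 (standard error 0.10, limma, adjusted p = 0.0556). The remaining genes of these lists with groups apart were *Csnk2a2* (log2 fold change -0.29), *Fmr1* (-0.35), whose product binds *Kcnc1* mRNA, and *Kcne1l* (-1.02), the symbol under which the files list *Kcne5*. *Ppp3r1*, *Csnk2a1* and *Vapa* lay close to the threshold and passed it, lower, when the test was limited to genes averaging 1 or more (counted for these lists after the data were seen). That setting called 1543 of 13604 genes (11.3%), 975 of them lower, whereas *Kcnb2*, *Kcnc1*, *Kcnc2* and *Kcnc4* passed it in none of the settings tried.

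Across the 6 libraries, the genes with the most similar pattern were sought among genes averaging 10 or more, by Pearson's r of log2(value + 1). For *Kcnb2* they were *Tnks2* (r = 0.988), *Ccdc181* (0.987) and *Gak* (0.986), and for *Kcnc1* they included *Slc26a2* (0.986) and *Lrrcc1* (0.982). For *Kcnc2* they were *Nipsnap1* (0.993), *Zcchc11* (0.973) and *Scap* (0.972), and for *Kcnc4* they were *Mrpl40* (0.981), *Sfmbt1* (0.979) and *Ciapin1* (0.976). These 6 points share the library scaling, and among some 8050 genes r was over 0.9 for 70, 69, 60 and 29 genes, respectively.

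**Figure D4:**
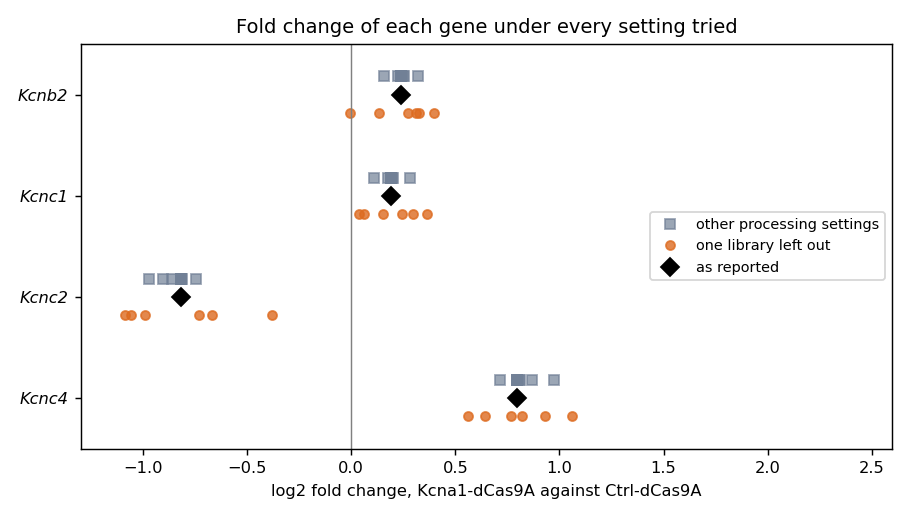
Log2 fold change of Kcna1-dCas9A against Ctrl-dCas9A for *Kcnb2*, *Kcnc1*, *Kcnc2* and *Kcnc4* as reported (black diamonds), under other processing settings (grey squares) and with a single library left out (orange circles). *Kcnc2* stays below 0, between -1.09 and -0.38, *Kcnc4* stays above 0, between 0.56 and 1.06, and *Kcnb2* reaches -0.006 with a library left out.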

How the data were processed

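QuantSeq 3′ libraries (1 tag per transcript) were compared between 3 Ctrl-dCas9A and 3 Kcna1-dCas9A libraries, grouped by their titles. The deposited score per gene is a whole number without a header. It was taken as a per-million value rounded by the authors, because every library sums to nearly the same total. The paper's methods name Bowtie2, mm9 and DESeq2, while the submitters' processing notes name STAR 2.7, featureCounts, DESeq2 and mm10. The scaling is not given in the sources used here, nor whether values were divided by gene length. Depth is unknown, so no intervals for counting error were computed.

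The planned test was limma 3.58.1 in R 4.3.3 with an intensity trend on log2(value + 1), over genes above 0 in at least 1 library and with the group as the only factor. It was run on all genes, adjusted by Benjamini-Hochberg at 0.05 and tested on simulated data. Gene ratios and values relative to neuronal markers were compared by exact permutation, and sequences were read with Python 3.11.15. The text names the 4 channel genes, *Kcna1*, listed partners past the threshold or with groups apart, and the 3 most similar genes of each. Some results under this rule are not reported here. *Sergef*, *Kcng1*, *Kcnv1*, *Vapb*, the neuronal markers and *Pvalb* were named after their values were seen. The channel genes and all lists were chosen with earlier results of these data known. Same-numbered libraries deviated from their group means with correlations of 0.014, 0.114 and 0.154 over 8050 genes. Differently numbered ones had correlations of -0.156 to 0.099, which leaves pairing possible. The planned test took no pairing, and a fit with the number as a block is given below. The numbers are those of the titles, and the deposited files of Kcna1-dCas9A carry others.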

Additional observations from a re-analysis of the deposited data

How the results depend on the processing

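*Kcnb2*, *Kcnc1*, *Kcnc2* and *Kcnc4* stayed above an adjusted p of 0.05 from limma in every setting that could be fitted. *Kcnc2* and *Kcnc4* were not fitted where every library had to reach 10. When single libraries were dropped, the log2 fold change lay from -0.006 to 0.40 for *Kcnb2*, which changed sign, and from 0.04 to 0.37 for *Kcnc1*, -1.09 to -0.38 for *Kcnc2* and 0.56 to 1.06 for *Kcnc4*. The 3 ratios kept their direction in all 8 settings each, but with a library dropped the difference ranged from 0.62 to 1.29 for *Kcnc1* to *Kcnc2* (lowest without Kcna1-dCas9A replicate 2), from -0.91 to -0.20 for *Kcnc1* to *Kcnc4* (nearest 0 without Ctrl-dCas9A replicate 3) and from -1.83 to -1.29 for *Kcnc2* to *Kcnc4*.

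The number of genes past the threshold, 226 as reported, was 627 with a pseudocount of 0.1, 1543 with a mean value of at least 1, 1946 with at least 10 in every library, 2405 with no filter, 1721 (963 higher, 758 lower) after median-of-ratios rescaling and 1768 without Gm42418. Without the trend it was 201, with 117 higher and 84 lower, against 68 higher and 158 lower as reported. It ranged from 0 to 2711 with a library left out, 2711 being without Ctrl-dCas9A replicate 3 and 0 (3332 to 3853 at an unadjusted p of 0.05 from limma) for each of the other 5. With the replicate number as a block it was 0 in limma, with 4326 at an unadjusted p of 0.05. With the block no channel gene passed the adjusted threshold, their log2 fold changes stayed as reported, and the interval of *Kcnc4* widened to -0.20 to 1.80, so its unadjusted limma result was lost. Of the 6 libraries, 5 correlated best with their own number, Ctrl-dCas9A replicate 1 being the exception. The adjusted p of *Kcna1* was 0.111 with the block and between 0.0186 and 0.143 with a library left out. Partners and regulators past the threshold numbered from 0 to 4, all lower, and silent subunits 0 or 1, counts added after seeing the data. For partners it was 4 of 18 with no filter, where 4.76% of all genes passed, and 4 of 14 without Gm42418, where 9.07% did. For silent subunits it was 1 of 7 in settings where 1.03% to 14.2% of all genes passed. The causes were not tested. Unknown depth and rounding limit *Kcnc2* and *Kcnc4* most.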
